A study of Mus musculus with 64 samples.

Results

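Gene expression of cardiomyocytes from newborn mouse hearts was set against that of other cells from newborn hearts: the 4 libraries of P1 sham cardiomyocytes against 4 libraries each of P1 sham fibroblasts, leukocytes and endothelial cells, 16 of the 64 libraries of the series, for all 20637 genes in the deposited table. The libraries were chosen by the labels and not by any measured value. All animals were mice of the CD1 strain, sham-operated on postnatal day 1 (P1), that is, taken through the surgery without a myocardial infarction (MI), and killed 3 days later. The ventricles were pooled by 6, digested with the enzyme Liberase DH in a stirred bath and separated on a Percoll density gradient. The bottom layer was lysed as the cardiomyocyte fraction without cell sorting. The top layer was sorted by surface antigens into fibroblasts (CD90+/CD45-/CD31-), leukocytes (CD45+) and endothelial cells (CD31+/CD45-), so population and sorting cannot be told apart. The series also holds P1 MI libraries and libraries of animals operated at P56, whose sham groups of the same 4 populations are used at the end. The labels do not state the sex of the newborn mice or that replicate libraries came from separate pools, so the p-values measure only the spread between these libraries.

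Cardiomyocytes are the contracting cells of the heart. Their sarcomeres slide actin along myosin filaments when calcium, released from the sarcoplasmic reticulum, binds the troponin complex, and mitochondria burning mainly fatty acids come to supply the ATP. Around birth these cells still divide and carry fetal isoforms of several sarcomere proteins, and both traits fade in the first weeks of life. Fibroblasts make the matrix around them, endothelial cells line the vessels, and leukocytes include macrophages and neutrophils.

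The values are the authors' normalised read counts in CPM (counts per 1e+06 reads of an effective library size), and total RNA was sequenced after depletion of ribosomal RNA. The 16 libraries held 9.80 to 27.5 M reads (M, 1e+06 reads), and 3 reads, the level a count of 0 allows, corresponded to 0.102 to 0.409 CPM, which covers counting error only. In 3 libraries the 18S ribosomal RNA took more than 5% of the reads, namely cardiomyocyte library 2 with 16.6%, fibroblast library 4 with 26.1% and leukocyte library 4 with 17.8%. Mitochondrial ribosomal RNA took 12.1% ± 3.67 of cardiomyocyte reads, against 0.857% ± 0.237 of fibroblast, 6.29% ± 2.98 of leukocyte and 1.27% ± 0.486 of endothelial reads (SD, n = 4). By a two-sided exact permutation test p was 0.0286, 0.0571 and 0.0286 against fibroblasts, leukocytes and endothelial cells (0.0857, 0.154 and 0.0857 after Benjamini-Hochberg adjustment over 27 such tests), and 0.0286 is the smallest value that 4 against 4 allows.

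The marker sums of the 4 populations were each highest in the population of that label, but markers were also present in other populations. The 16 cardiomyocyte markers summed to 59280.0, 78469, 53351 and 49163 CPM in the 4 cardiomyocyte libraries. They summed to 719, 591, 683 and 855 CPM in fibroblasts, 21230.0, 20039, 26059 and 26064 CPM in leukocytes and 898, 919, 884 and 2746 CPM in endothelial cells. The leukocyte mean was 38.9% of that of cardiomyocytes, while fibroblasts stood at 1.19% and endothelial cells at 2.27%. Thus muscle transcripts were present in the CD45+ libraries at a level between cardiomyocytes and the other populations, and endothelial library 4 stood above the other 3. The part of this in the differences from leukocytes was not tested. In a bulk library fewer cells of a type and less RNA per cell cannot be told apart.

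Markers of other cells were also present in the unsorted cardiomyocyte fraction. The 14 endothelial markers summed to 3563 ± 755 CPM in cardiomyocytes, 32.3% of the 11040.0 ± 945 CPM in endothelial cells. They summed to 4507 ± 365 CPM in leukocytes, 40.8% of the endothelial level, and to 348 ± 28.4 CPM in fibroblasts. Fibroblast markers (13 genes) summed to 5564 ± 1962 CPM in cardiomyocytes, 6.91% of the fibroblast level, and leukocyte markers (12 genes) to 147 ± 47.4 CPM, 8.29% of the leukocyte level. Neutrophil markers (10 genes) summed to 332, 113, 641 and 542 CPM in the 4 cardiomyocyte libraries, lowest in library 2, against a mean of 2578 ± 793 CPM in leukocytes. The 5 erythroid markers in the table summed to 81.6 to 159 CPM in cardiomyocytes, above 10.2 to 14 CPM in fibroblasts, 37.8 to 54.2 CPM in leukocytes and 30.2 to 37.2 CPM in endothelial cells. None of these markers was at 0 in all 4 cardiomyocyte libraries. Thy1, which encodes CD90, was at 9.09, 9.97, 14.2 and 15.4 CPM in cardiomyocytes against 141 to 160.1 CPM in fibroblasts, and Ptprc, which encodes CD45, at 29.8, 19.6, 28.3 and 31.5 CPM against 290.2 to 426 CPM in leukocytes. Pecam1, which encodes CD31, was at 574, 385, 667 and 731 CPM in cardiomyocytes and 575, 660.4, 679 and 587 CPM in leukocytes, against 1590.1, 1472, 1536 and 1351 CPM in endothelial cells. Cdh5, the cadherin of endothelial junctions, was at 598, 571, 771 and 753 CPM in cardiomyocytes against 1.81 to 5.18 CPM in fibroblasts and 1594 to 2067 CPM in endothelial cells, and so was among the largest increases over fibroblasts, by 7.65 ± 0.19. The part of these cells in the results below was not tested.

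**Figure D1:**
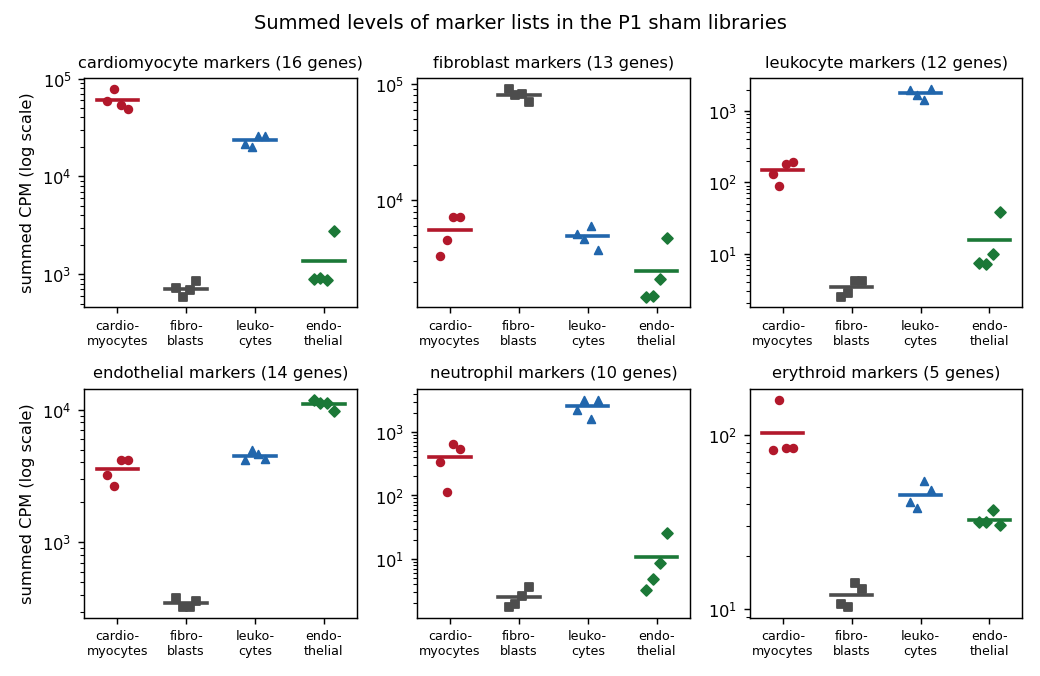
Summed CPM (log scale) of 6 marker lists in each P1 sham library, with cardiomyocytes left and the other populations after them; points are libraries and bars are means of 4. Cardiomyocyte markers are highest in cardiomyocytes, with leukocytes at 38.9% of their mean, and endothelial markers in cardiomyocytes reach 32.3% of the endothelial mean.

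Of the 20637 genes, 16329 reached 1 CPM in at least 4 of the 16 libraries and were tested with limma on log2(CPM + 0.5), a scale that understates the change of low genes. At an adjusted p under 0.05, 11925 genes (73.0%) differed between cardiomyocytes and fibroblasts, 5608 (34.3%) higher and 6317 (38.7%) lower in cardiomyocytes. Against leukocytes 11505 genes (70.5%) differed, 5459 (33.4%) higher and 6046 (37.0%) lower, and against endothelial cells 12256 (75.1%), 5747 (35.2%) higher and 6509 (39.9%) lower. Which direction held more genes rested on the scaling: higher genes were 47% of those called against fibroblasts, 47.4% against leukocytes and 46.9% against endothelial cells, and 51.7%, 52% and 50.9% with edgeR. With a log2 difference of at least 1 asked of all 3 comparisons, 1233 genes (7.55%) were higher in cardiomyocytes than in each other population and 451 (2.76%) were lower. These lists are meant below by "higher than each" and "lower than each". Of the 1233 genes, 1096 (88.9%) are protein coding, against 84.9% of all genes tested. Another 86 (6.97%, against 4.68%) are processed pseudogenes, which can share reads with their parent genes. In 2437 genes (14.9%) every cardiomyocyte library lay above every other library, and in 1900 (11.6%) below. Where the leukocytes, with their muscle transcripts, were left out (a choice made after the data were seen), 1853 genes were higher and 802 lower than both remaining populations. Without the 3 libraries with over 5% of 18S ribosomal RNA 1180 genes were higher and 589 lower than each. Differences are log2 values of cardiomyocytes minus the other population, ± standard error.

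The 10 genes with the largest smallest difference encode secreted peptides, light chains, a calcium pump inhibitor, mitochondrial enzymes and sarcomere proteins. Sln encodes sarcolipin, an inhibitor of the sarcoplasmic reticulum calcium pump. It was at 18.7, 38.6, 22.1 and 48.2 CPM in cardiomyocytes, against 0.170, 0.109, 0.0713 and 0.136 CPM in fibroblasts, 0.467, 4.27, 0.432 and 0.449 CPM in leukocytes and 0, 0, 0.0775 and 0.344 CPM in endothelial cells. No library of another population reached the lowest cardiomyocyte library, and the differences were 5.60 ± 0.41 from fibroblasts (adjusted p = 8.52e-10), 4.41 ± 0.41 from leukocytes (adjusted p = 3.8e-08) and 5.67 ± 0.41 from endothelial cells (adjusted p = 9.86e-10). Nppa encodes atrial natriuretic peptide, a hormone of atrial and of fetal ventricular muscle that lowers blood pressure. Its level was 104, 203, 108 and 147 CPM in cardiomyocytes, against 0.306, 0.0724, 0.214 and 0.409 CPM in fibroblasts, 3.11, 19.1, 6.05 and 7.52 CPM in leukocytes and 0.635, 0.164, 0.426 and 1.5 CPM in endothelial cells. The differences of Nppa were 7.52 ± 0.40 from fibroblasts (adjusted p = 7.17e-12), 4.12 ± 0.40 from leukocytes (adjusted p = 5.18e-08) and 6.96 ± 0.40 from endothelial cells (adjusted p = 3.11e-11). Nppb, which encodes the related B-type peptide, was at 217, 101, 132 and 149.9 CPM in cardiomyocytes, against 0.306, 0.145, 0.0713 and 0.409 CPM in fibroblasts, 9.14, 10.4, 15.8 and 12.3 CPM in leukocytes and 0.261, 0.329, 0.542 and 1.55 CPM in endothelial cells. Its smallest difference was 3.57 ± 0.28 from leukocytes (adjusted p = 4.01e-09).

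Myl7 and Myl4 encode the atrial regulatory and the atrial and fetal essential myosin light chain. Myl7 was at 148, 369, 241 and 457 CPM in cardiomyocytes, against 1.12, 0.760, 1.21 and 2.59 CPM in fibroblasts, 7.35, 76.4, 9.08 and 13.8 CPM in leukocytes and 0.336, 0.452, 0.581 and 3.95 CPM in endothelial cells. Leukocyte library 2 held over 5 times as much Myl7 as any other leukocyte library, and the smallest difference was 4.04 ± 0.61 from leukocytes (adjusted p = 1.21e-05). Myl4 was at 118, 259, 154 and 271 CPM in cardiomyocytes, against 13.3, 13.3, 13.2 and 15.3 CPM in fibroblasts, 7.04, 44.6, 10.8 and 11.3 CPM in leukocytes and 2.95, 2.51, 3.02 and 5.50 CPM in endothelial cells, with a smallest difference of 3.70 ± 0.40 from leukocytes (adjusted p = 2e-07). The 6 atrial genes examined summed to 296, 682, 402 and 689 CPM in cardiomyocytes, and leukocyte library 2, at 124 CPM, again stood above the other 3 leukocyte libraries. The labels name ventricles as the tissue.

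The other 5 genes serve energy supply and the sarcomere. Ckmt2, the sarcomeric mitochondrial creatine kinase, was at 322, 209.9, 207 and 192 CPM in cardiomyocytes, against 18.2 to 22.1 CPM in leukocytes and at most 2.71 CPM elsewhere. Cox7a1 and Cox8b, muscle isoforms of cytochrome oxidase subunits, were at 197, 116, 153 and 142 CPM and 284, 153, 190.0 and 195 CPM in cardiomyocytes. Smpx, a small muscle protein, was at 484, 312, 295 and 326 CPM, and Myoz2, a Z disc protein that binds calcineurin, at 534, 355, 374 and 369 CPM. Their smallest differences, all from leukocytes, were 3.46 ± 0.20 for Ckmt2, 3.25 ± 0.24 for Cox7a1, 3.24 ± 0.26 for Smpx, 3.18 ± 0.27 for Cox8b and 3.15 ± 0.21 for Myoz2. From fibroblasts and endothelial cells the 5 genes differed by 5.97 to 7.65.

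**Figure D2:**
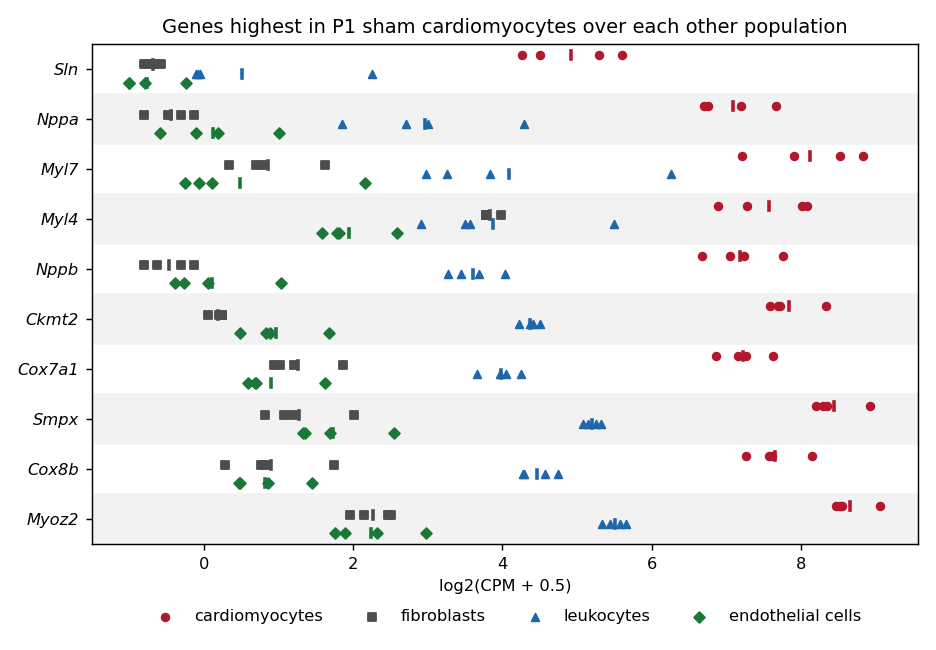
Level on the log2(CPM + 0.5) scale of the 10 genes with the largest smallest difference, 1 point per P1 sham library, with cardiomyocytes in the top row of each gene and short bars at the mean of 4. In each gene the lowest cardiomyocyte library is above the highest other library. Leukocyte library 2 stands apart in Sln, Myl7 and Myl4.

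The promoters of 4 of the genes higher than each, chosen after the search, are shown because natriuretic peptide and light chain promoters are textbook targets of cardiac regulators. Each line gives the 250 bases before the annotated start, 5′ to 3′ on the gene's own strand, from RefSeq on GRCm38.p6. Capitals mark matches on either strand to CATTCC (the core read by TEAD factors), AGATAA or TGATAA (read by zinc finger factors such as Gata4) and the CArG box (serum response factor). Matches to TATAAA (which positions the polymerase) are marked too, but were searched on the gene's own strand only.
Nppa promoter, chr4:148000472-148000721, plus strand: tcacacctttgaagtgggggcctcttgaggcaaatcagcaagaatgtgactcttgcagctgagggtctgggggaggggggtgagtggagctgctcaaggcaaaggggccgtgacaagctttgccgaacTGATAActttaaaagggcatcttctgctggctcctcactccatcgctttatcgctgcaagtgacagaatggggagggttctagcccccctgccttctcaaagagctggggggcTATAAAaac
Nppb promoter, chr4:147985650-147985899, plus strand: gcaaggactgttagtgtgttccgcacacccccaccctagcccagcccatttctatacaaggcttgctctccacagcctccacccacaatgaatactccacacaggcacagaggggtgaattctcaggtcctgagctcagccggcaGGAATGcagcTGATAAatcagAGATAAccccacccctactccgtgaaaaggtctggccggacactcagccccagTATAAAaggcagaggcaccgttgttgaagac
Myl7 promoter, chr11:5898783-5899032, minus strand: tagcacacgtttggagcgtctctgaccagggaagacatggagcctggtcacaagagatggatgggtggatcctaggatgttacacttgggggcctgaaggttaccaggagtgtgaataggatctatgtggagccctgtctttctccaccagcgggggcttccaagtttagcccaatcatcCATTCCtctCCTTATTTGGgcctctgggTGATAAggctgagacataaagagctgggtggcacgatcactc
Myl3 promoter, chr9:110763428-110763677, plus strand: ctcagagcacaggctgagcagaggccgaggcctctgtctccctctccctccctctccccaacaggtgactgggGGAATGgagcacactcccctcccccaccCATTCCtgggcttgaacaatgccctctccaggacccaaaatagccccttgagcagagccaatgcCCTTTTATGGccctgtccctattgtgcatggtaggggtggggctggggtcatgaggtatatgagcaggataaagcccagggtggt
Nppb held the TEAD core 105 to 100 bases before the start, 2 GATA matches 95 to 90 and 84 to 79 bases before it, and a TATA box at 31 to 26. Nppa held 1 GATA match at 122 to 117 and the letters TATAAA at 9 to 4. Myl7 held the TEAD core at 70 to 65, a CArG box at 61 to 52 and a GATA match at 42 to 37, and Myl3 held 2 TEAD cores and a CArG box at 85 to 76. No marked matches overlap. Among 830 protein-coding genes higher than each with a promoter in the table, CATTCC was present in 15.9%, against 13.1% of all 10455 tested protein-coding genes with one. AGATAA or TGATAA was present in 14.2% against 11.7%, the CArG box in 2.89% against 1.45%, the MEF2 site in 5.06% against 2.14%, and TATAAA in 5.30% against 5.01%. Among 219 such genes lower than each, the shares were 15.5% for CATTCC, 12.3% for AGATAA or TGATAA, 1.37% for the CArG box, 1.83% for the MEF2 site and 7.76% for TATAAA. Promoters of 1 gene were counted together. A match describes these letters and not binding.

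Sarcomere genes were higher in cardiomyocytes in most lists and by wide margins. Of 7 troponin genes tested, 5 were higher than each. Over all genes tested the share was 7.55% and the medians were -0.07, -0.03 and -0.06 against fibroblasts, leukocytes and endothelial cells, while the median over the troponins was 6.84 against fibroblasts, 1.66 against leukocytes and 6.19 against endothelial cells. Tnni1, the slow skeletal and fetal inhibitory subunit, was at 1020.1, 1028, 1080.0 and 801 CPM in cardiomyocytes, against 7.31, 6.52, 7.38 and 11.8 CPM in fibroblasts, 167, 185, 222 and 188 CPM in leukocytes and 7.47, 9.57, 9.37 and 19.1 CPM in endothelial cells. Tnni3, the adult cardiac inhibitory subunit, was at 2066, 1832, 1647 and 1583 CPM, against 10.7, 7.82, 9.59 and 15.4 CPM in fibroblasts, 226, 255, 299.7 and 247 CPM in leukocytes and 8.63, 11.7, 9.64 and 27.2 CPM in endothelial cells. Both isoforms were therefore high in the same libraries, with smallest differences of 2.36 ± 0.22 from leukocytes (adjusted p = 2.92e-08) for Tnni1 and 2.79 ± 0.26 from leukocytes (adjusted p = 2.95e-08) for Tnni3. Per kilobase of the authors' gene length the levels in cardiomyocytes were 3467 CPM for Tnni3 and 456 CPM for Tnni1. The calcium-binding Tnnc1 averaged 1662 ± 302 CPM and the tropomyosin-binding Tnnt2 2772 ± 443 CPM in cardiomyocytes (SD, n = 4), with smallest differences of 2.92 ± 0.25 and 1.66 ± 0.30, both from leukocytes. Tnnt1, the slow skeletal isoform, was at 25 to 32.4 CPM and also higher than each, by at least 1.48 ± 0.15.

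Among 15 myosin chains 8 were higher than each, with medians of 3.02 against fibroblasts, 1.63 against leukocytes and 3.42 against endothelial cells. Myl2, the ventricular regulatory light chain, was at 7817, 6926, 6549 and 6500.5 CPM in cardiomyocytes, against 49.9, 39.3, 46.4 and 71.4 CPM in fibroblasts, 787, 876, 1053 and 819 CPM in leukocytes and 41, 55.2, 46.1 and 127 CPM in endothelial cells. Its smallest difference was 2.98 ± 0.26 from leukocytes (adjusted p = 1.23e-08), and that of the ventricular essential chain Myl3 was 2.76 ± 0.24 from leukocytes (adjusted p = 1.49e-08). Myh6, the fast cardiac heavy chain, was at 8085, 15213, 9365 and 7577 CPM in cardiomyocytes and 3332, 3619.8, 4812 and 4503 CPM in leukocytes, with 41.6 to 75.9 CPM in fibroblasts and 88.4 to 369.9 CPM in endothelial cells. It was higher than in leukocytes by 1.26 ± 0.35 (adjusted p = 0.0036), a call that quantile normalization ended (0.67, adjusted p = 0.0919). Myh7, the slow heavy chain of the fetal ventricle, differed by 7.46 ± 0.29 from fibroblasts (adjusted p = 8.78e-14) and by 0.97 ± 0.29 from leukocytes (adjusted p = 0.00558), under the log2 difference of 1 asked of each; with quantile normalization the adjusted p against leukocytes was 0.0865. Per kilobase, cardiomyocytes held 1662 CPM of Myh6 and 375 CPM of Myh7; these chains, like the actins below, are near-identical in places, and the sources used here do not say how shared reads were counted. Myh7b, a further slow chain, was at 53.8, 133, 51.5 and 37.8 CPM in cardiomyocytes and 92.7, 93.5, 166 and 135 CPM in leukocytes. These ranges overlap through cardiomyocyte library 2, and the difference of -0.94 ± 0.37 from leukocytes (adjusted p = 0.0315) lost its call when any of cardiomyocyte libraries 1, 3 and 4 or leukocyte libraries 3 and 4 was left out (adjusted p up to 0.112). That call was also lost with edgeR (adjusted p = 0.105) and DESeq2 (adjusted p = 0.156).

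Most thick filament and Z disc genes were higher than each, while the thin filament was mixed. Of 10 actins and tropomyosins 4 were higher than each; against fibroblasts 4 were higher and 4 lower, with a median of 0.35. Actc1, the cardiac actin, was at 4643, 5050.4, 4780.4 and 3972 CPM in cardiomyocytes, with a smallest difference of 2.01 ± 0.28 from leukocytes (adjusted p = 5.21e-06). Acta1, the skeletal actin carried by fetal and stressed hearts, was at 45.5, 66.2, 38.6 and 31.8 CPM, against 0.713 to 1.09 CPM in fibroblasts, 5.06 to 10.7 CPM in leukocytes and 0.672 to 1.85 CPM in endothelial cells; its smallest difference was 2.60 ± 0.25 from leukocytes (adjusted p = 5.25e-08). Acta2, the smooth muscle actin that early cardiomyocytes and myofibroblasts share, was at 544, 422, 604 and 644 CPM in cardiomyocytes, against 186 to 298 CPM in fibroblasts, 119 to 174 CPM in leukocytes and 24.7 to 52.7 CPM in endothelial cells. It was higher than each too, and its smallest difference was 1.16 ± 0.20 from fibroblasts (adjusted p = 5.44e-05). Of 15 genes of the thick filament, titin and M band 12 were higher than each, and of 19 Z disc genes 16, with Z disc medians of 5.76 against fibroblasts, 1.56 against leukocytes and 5.40 against endothelial cells. Csrp3, a muscle LIM protein, was at 766, 555, 554 and 568 CPM, with a smallest difference of 3.08 ± 0.24 from leukocytes (adjusted p = 4.55e-09). Mybphl, a thick filament protein known from atrial muscle, was at 5.17, 22.1, 7.45 and 14.5 CPM in cardiomyocytes, against 0.0680 to 0.409 CPM in fibroblasts, 0.311 to 3.39 CPM in leukocytes and 0.0387 to 0.205 CPM in endothelial cells. Ttn, the giant spring protein of the sarcomere, went another way and was picked after its values were seen. It was at 9804, 25858, 9891 and 10957 CPM in cardiomyocytes and 11357, 9483, 12585 and 13770.0 CPM in leukocytes, where the ranges overlap and the difference was 0.14 ± 0.39 from leukocytes (adjusted p = 0.763).

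Genes of excitation and cell contact were higher in part. Of 22 calcium handling genes 12 were higher than each, with medians of 3.13 against fibroblasts, 1.23 against leukocytes and 4.14 against endothelial cells. Casq2, the calcium store protein of the sarcoplasmic reticulum, was at 1469.9, 986, 972 and 1036 CPM in cardiomyocytes, against 22.1, 9.19, 13.9 and 17 CPM in fibroblasts, 136, 157, 149 and 126 CPM in leukocytes and 7.81, 7.11, 7.51 and 16.5 CPM in endothelial cells. Pln, phospholamban, which restrains the calcium pump, was at 4272, 2594, 2614 and 2454 CPM in cardiomyocytes, against 24.4 to 37.3 CPM in fibroblasts, 426 to 478 CPM in leukocytes and 31.9 to 83 CPM in endothelial cells. The smallest differences were 2.95 ± 0.25 from leukocytes (adjusted p = 7.98e-09) for Casq2 and 2.70 ± 0.23 from leukocytes (adjusted p = 9.67e-09) for Pln. Atp2a2, the pump itself and a gene also used outside muscle, was at 4356, 4999.6, 4250.4 and 3242 CPM in cardiomyocytes, against 249 to 279 CPM in fibroblasts, 1044 to 1251 CPM in leukocytes and 195 to 270.0 CPM in endothelial cells. The calcium release channel Ryr2 was at 1293, 2084, 1305 and 1085 CPM in cardiomyocytes and 788, 705, 950.3 and 990.1 CPM in leukocytes. Its difference of 0.72 ± 0.30 from leukocytes (adjusted p = 0.0423) lost its call when any of cardiomyocyte or leukocyte libraries 1, 2 and 3 was left out (adjusted p up to 0.137). That call was also lost with quantile normalization (adjusted p = 0.123) and DESeq2 (adjusted p = 0.101). Atp2a2 and Ryr2 were picked after their values were seen.

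Of 25 ion channel and connexin genes 11 were higher than each. Kcne1, a subunit of the slow delayed rectifier channel, was at 122, 129, 97.4 and 92.5 CPM in cardiomyocytes, against 0.109 to 0.409 CPM in fibroblasts, 19 to 19.5 CPM in leukocytes and 0.370 to 1.42 CPM in endothelial cells; its smallest difference was 2.47 ± 0.21 from leukocytes (adjusted p = 9.59e-09). Kcnj5, a subunit of the channel opened by acetylcholine, was at 76 to 108 CPM with a smallest difference of 2.02 ± 0.20 from fibroblasts (adjusted p = 5.7e-08). Of 17 intercalated disc genes 8 were higher than each, among them the desmosomal Dsc2 and Pkp2. Pkp2 was at 209.9, 214, 167 and 136 CPM in cardiomyocytes, against 1.30 to 2.45 CPM in fibroblasts, 38 to 51.9 CPM in leukocytes and 5.94 to 9.62 CPM in endothelial cells. Of 21 costamere and integrin genes 6 were higher than each. Cav3, the muscle caveolin, was at 78 to 102 CPM and differed by 4.68 from fibroblasts, 2.58 from leukocytes and 6.17 from endothelial cells.

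Transcription factors that control the heart's muscle genes were measured next. Of 20 cardiac transcription factors 7 were higher than each, with medians of 1.08 against fibroblasts, 1.00 against leukocytes and 1.24 against endothelial cells. Nkx2-5, the homeobox factor of the early heart, was at 17, 51.6, 31.5 and 12.8 CPM in cardiomyocytes, against 0.442, 0.253, 0.571 and 0.272 CPM in fibroblasts, 6.34, 10.9, 11.4 and 11.4 CPM in leukocytes and 0.336, 0.698, 0.426 and 1.25 CPM in endothelial cells. It had a smallest difference of 1.28 ± 0.34 from leukocytes (adjusted p = 0.00244). Tbx5, a T-box factor of the left ventricle and atria, was at 14.8, 29.2, 17.3 and 16.4 CPM in cardiomyocytes, against 0.464 to 1.46 CPM in fibroblasts, 4.32 to 6.82 CPM in leukocytes and 0.616 to 1.42 CPM in endothelial cells, and Hey2, a repressor of the compact ventricular wall, at 42.4, 32.4, 34.2 and 29.8 CPM, against 6.27 to 10.1 CPM in fibroblasts, 8.16 to 9.25 CPM in leukocytes and 6.01 to 6.91 CPM in endothelial cells. Hopx, a cofactor without DNA binding, was at 333, 189.7, 234 and 207 CPM with a smallest difference of 2.78 ± 0.18 from leukocytes (adjusted p = 4.72e-10). By contrast Gata4, the zinc finger factor picked after its values were seen, was at 84.4, 149, 112 and 76.7 CPM in cardiomyocytes and 155, 136, 131 and 123 CPM in fibroblasts. Its difference from fibroblasts, -0.41 ± 0.17 (adjusted p = 0.0355), lost its call when any of cardiomyocyte libraries 1 and 4 or fibroblast libraries 1, 2 and 3 was left out (adjusted p up to 0.145), while those from leukocytes and endothelial cells were 1.23 ± 0.17 and 1.62 ± 0.17. The call against fibroblasts was also lost with edgeR (adjusted p = 0.149), DESeq2 (adjusted p = 0.177), quantile normalization (adjusted p = 0.1045) and library totals without ribosomal RNA (adjusted p = 0.137).

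Among 18 regulators of metabolic genes 4 were higher than each and 1 was lower. Ppara, the fatty acid sensing nuclear receptor, was at 25.9, 16.7, 20.8 and 18.3 CPM in cardiomyocytes, against 2.86 to 3.87 CPM in fibroblasts, 5.36 to 7.07 CPM in leukocytes and 0.411 to 1.25 CPM in endothelial cells. Esrrg, an orphan receptor of mitochondrial genes, was at 19.9, 27.5, 15.3 and 14.5 CPM in cardiomyocytes, against 1.12 to 1.25 CPM in fibroblasts, 7.54 to 10.9 CPM in leukocytes and 0.930 to 1.98 CPM in endothelial cells, and Perm1, a muscle regulator induced by such receptors, at 91, 109.9, 93.5 and 65.7 CPM, against 2.52 to 3.44 CPM in fibroblasts, 25.2 to 28.3 CPM in leukocytes and 2.80 to 8.72 CPM in endothelial cells. Ppard, the sister receptor of Ppara, was lower than each, at 3.00, 6.76, 5.00 and 4.78 CPM in cardiomyocytes, against 11, 11.5, 10.4 and 14.2 CPM in fibroblasts, 23.7, 18.8, 17.8 and 26 CPM in leukocytes and 10.9, 11.8, 8.91 and 11.1 CPM in endothelial cells. Its differences were -1.23 ± 0.18 from fibroblasts (adjusted p = 9.28e-06), -2.07 ± 0.18 from leukocytes (adjusted p = 1.84e-08) and -1.09 ± 0.18 from endothelial cells (adjusted p = 3.3e-05). Of 14 splicing regulators 3 were higher than each, with Rbm24 at 183, 214, 164 and 125 CPM and Rbm20, which selects titin exons, at 304, 399, 284 and 208 CPM. Their smallest differences were 1.88 ± 0.26 from leukocytes (adjusted p = 3.67e-06) for Rbm24 and 1.26 ± 0.29 from leukocytes (adjusted p = 0.000767) for Rbm20.

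Mitochondrial energy genes were higher almost as whole lists. All 22 tested genes of the citric acid cycle and pyruvate dehydrogenase were higher than each, as were 22 of 24 genes of fatty acid oxidation and 37 of 39 nuclear genes of the respiratory chain, against 7.55% of all genes. The respiratory chain medians were 2.89 against fibroblasts, 2.21 against leukocytes and 3.04 against endothelial cells. Fabp3, which carries fatty acids through the muscle cell, was at 525, 456, 398 and 374 CPM in cardiomyocytes, against 2.07, 2.17, 2.32 and 3.27 CPM in fibroblasts, 47.3, 47.6, 75.3 and 66.2 CPM in leukocytes and 1.49, 3.45, 2.13 and 6.23 CPM in endothelial cells. Decr1, an enzyme for unsaturated fatty acids found in all these populations, was at 441, 258, 335 and 291 CPM in cardiomyocytes, against 40.6 to 49.3 CPM in fibroblasts, 50.2 to 60.3 CPM in leukocytes and 19.4 to 22.1 CPM in endothelial cells. Both were higher than each, by at least 2.90 ± 0.27 for Fabp3 and 2.58 ± 0.13 for Decr1. Ndufa4, a small subunit of the chain, was at 738, 345, 465 and 471 CPM in cardiomyocytes, against 41.5 to 47.1 CPM in fibroblasts, 67 to 74.7 CPM in leukocytes and 46.6 to 55.5 CPM in endothelial cells, and Sdhd, the membrane anchor of succinate dehydrogenase, at 633, 393, 459.8 and 458 CPM, against 47.2 to 55.3 CPM in fibroblasts, 90.7 to 96.8 CPM in leukocytes and 41.2 to 50.2 CPM in endothelial cells.

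Cytochrome oxidase subunits exist as heart and skeletal muscle isoforms and as ubiquitous ones, and both kinds were higher in cardiomyocytes, by different amounts. Of 10 such genes 9 were higher than each. The muscle isoform Cox6a2 was at 305, 311, 269 and 264 CPM in cardiomyocytes, against 1.09, 0.652, 1.03 and 1.5 CPM in fibroblasts, 32.1, 37.1, 47.9 and 44.9 CPM in leukocytes and 0.747, 0.904, 1.01 and 3.87 CPM in endothelial cells. The ubiquitous isoform Cox6a1 was at 128, 148, 146 and 125 CPM in cardiomyocytes, against 56.9, 51.2, 59.1 and 63.7 CPM in fibroblasts, 56.2, 64.9, 67.9 and 61.8 CPM in leukocytes and 60.4, 55.1, 60.7 and 52.3 CPM in endothelial cells. Cox6a2 was thus under 2 CPM in fibroblasts, with differences of 7.54 from fibroblasts, 2.82 from leukocytes and 7.28 from endothelial cells, whereas Cox6a1 was present throughout, with differences of 1.24 from fibroblasts, 1.12 from leukocytes and 1.25 from endothelial cells. The pair Cox8b (muscle) and Cox8a (ubiquitous) showed the same order, with differences of 6.75 from fibroblasts, 3.18 from leukocytes and 6.83 from endothelial cells for Cox8b and 1.48 from fibroblasts, 1.44 from leukocytes and 1.92 from endothelial cells for Cox8a. Per kilobase the cardiomyocyte levels were 422 CPM for Cox6a2, 239 CPM for Cox6a1, 568 CPM for Cox8b and 217 CPM for Cox8a. None of 7 tested genes encoded by mitochondrial DNA was higher than each by the rule. mt-Co1, a catalytic subunit of cytochrome oxidase, was at 22930.0, 13712, 14158 and 16398 CPM in cardiomyocytes and 6575, 6954, 12746 and 9197 CPM in leukocytes, with differences of 3.26 ± 0.26 from fibroblasts (adjusted p = 2.26e-09), 0.94 ± 0.26 from leukocytes (adjusted p = 0.00344) and 2.87 ± 0.26 from endothelial cells (adjusted p = 1.66e-08). The difference from leukocytes lost its call with quantile normalization (0.61, adjusted p = 0.157).

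Of 28 genes of glycolysis and lactate use 20, 16 and 22 were higher in cardiomyocytes than in fibroblasts, leukocytes and endothelial cells and 2, 6 and 2 were lower. Over all genes tested 34.3%, 33.4% and 35.2% were higher and 38.7%, 37.0% and 39.9% lower. Of the 28 genes 11 were higher than each, beside 7.55% of all genes. Pfkfb3, an activator of glycolysis by its product, was the 1 gene lower than each, beside 2.76% of all genes. Eno3, the muscle enolase, was at 998, 824, 912 and 771 CPM in cardiomyocytes, against 9.01 to 11.7 CPM in fibroblasts, 125 to 153 CPM in leukocytes and 6.83 to 15.7 CPM in endothelial cells. Ldhb, the lactate dehydrogenase subunit typical of heart, was at 321, 285, 259 and 226 CPM in cardiomyocytes, against 7.53 to 11.2 CPM in fibroblasts, 44 to 52.2 CPM in leukocytes and 6.57 to 8.63 CPM in endothelial cells. Pgam2, the muscle phosphoglycerate mutase, and Slc2a4, the glucose carrier moved by insulin, were at 188 to 236 CPM and 68.3 to 83.3 CPM. The smallest differences were 2.64 ± 0.17 for Eno3, 2.50 ± 0.13 for Ldhb, 2.67 ± 0.18 for Pgam2 and 2.21 ± 0.18 for Slc2a4, all from leukocytes. Of 13 glycogen genes 8 were higher than each, among them the muscle phosphorylase Pygm at 339.8, 365, 344 and 258 CPM. Ckm, the muscle creatine kinase, was at 873, 824, 914 and 654 CPM in cardiomyocytes, against 4.78 to 6.54 CPM in fibroblasts, 124 to 182 CPM in leukocytes and 4.65 to 14 CPM in endothelial cells, and Mb, myoglobin, the oxygen store, at 4512, 2500.2, 2692 and 2817 CPM, against 15.2 to 23.7 CPM in fibroblasts, 326 to 419 CPM in leukocytes and 18.4 to 52.8 CPM in endothelial cells.

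**Figure D3:**
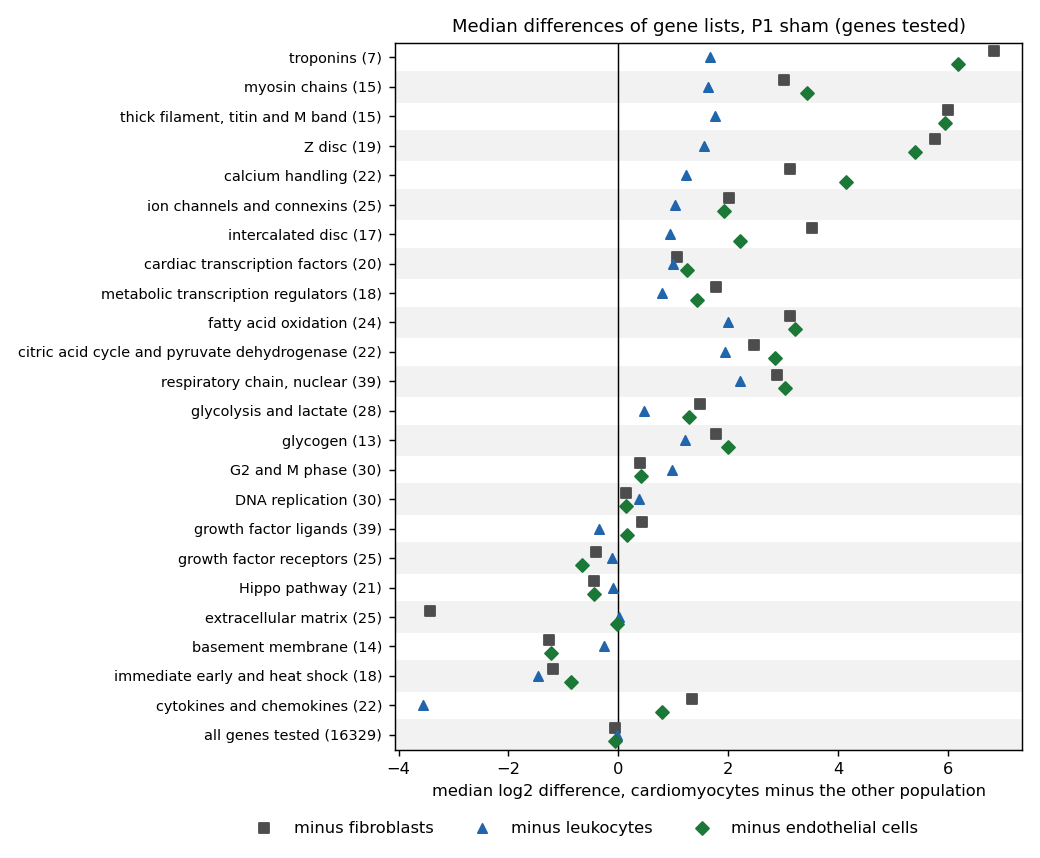
Median log2 difference of cardiomyocytes minus fibroblasts, leukocytes and endothelial cells for 23 gene lists and for all 16329 genes tested (number of genes in brackets). The plotted troponin, myosin, thick filament, Z disc, fatty acid, citric acid and respiratory chain lists lie right of 0 in all 3 comparisons and nearest to it against leukocytes; matrix lies left against fibroblasts, and cytokines left against leukocytes.

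Cell cycle genes were present in all 4 populations of these newborn hearts. Of 30 genes of the G2 and M phases 1 was higher than each, Ube2c, and of 30 DNA replication genes 2, Rfc4 and Rrm2, beside 7.55% of all genes tested. Pairwise, 16, 26 and 16 of the 30 G2 and M genes were higher in cardiomyocytes than in fibroblasts, leukocytes and endothelial cells and 2, 0 and 4 were lower, with medians of 0.40 against fibroblasts, 0.98 against leukocytes and 0.41 against endothelial cells; all genes had 34.3%, 33.4% and 35.2% higher. Ube2c, the ubiquitin carrier of the anaphase-promoting complex, was at 54.8, 51.1, 50.0 and 44.8 CPM in cardiomyocytes, against 28.6, 19, 24.8 and 17.8 CPM in fibroblasts, 14.1, 17.8, 11.7 and 14.1 CPM in leukocytes and 24.3, 17.8, 20.1 and 20.1 CPM in endothelial cells. Its differences were 1.16 ± 0.15 from fibroblasts (adjusted p = 1.42e-06), 1.77 ± 0.15 from leukocytes (adjusted p = 8.66e-09) and 1.27 ± 0.15 from endothelial cells (adjusted p = 4.56e-07). Rrm2, a subunit of ribonucleotide reductase, was at 82, 77.5, 77.4 and 62.1 CPM in cardiomyocytes, against 30.5 to 40.1 CPM in fibroblasts, 28.1 to 29.8 CPM in leukocytes and 29.5 to 36.1 CPM in endothelial cells, with a smallest difference of 1.01 ± 0.10 from fibroblasts (adjusted p = 8.24e-08). Of 18 cell cycle entry genes E2f6, a repressor of the E2F family, was the only one higher than each; it was at 39.1 to 58.4 CPM in cardiomyocytes, higher by at least 1.06 ± 0.11.

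Mki67 and Cdk1, widely used signs of cycling cells, were picked after their values were seen. Cdk1, the kinase that starts mitosis, was at 178, 101, 153 and 159 CPM in cardiomyocytes, against 89.5, 68, 90.9 and 82.4 CPM in fibroblasts, 52.1, 66.1, 52 and 55.4 CPM in leukocytes and 97.3, 76.4, 88 and 77 CPM in endothelial cells. It was higher in cardiomyocytes in each comparison, by 0.81 from fibroblasts, 1.36 from leukocytes and 0.78 from endothelial cells, so only the difference from leukocytes passed 1. Mki67, which coats mitotic chromosomes, was at 282, 538, 315 and 319 CPM in cardiomyocytes, against 519, 404, 522 and 469 CPM in fibroblasts, 426, 464, 384 and 453 CPM in leukocytes and 598, 464, 549.8 and 509 CPM in endothelial cells. Cardiomyocyte library 2 stood above the other 3, and the differences were -0.44 ± 0.16 from fibroblasts (adjusted p = 0.0211), -0.29 ± 0.16 from leukocytes (adjusted p = 0.114) and -0.59 ± 0.16 from endothelial cells (adjusted p = 0.00316). Without that library the difference from leukocytes was -0.50 (adjusted p = 0.00072), and without any of cardiomyocyte libraries 1, 3 and 4 or fibroblast libraries 1 and 3 the adjusted p against fibroblasts was 0.056 to 0.0798. The call against fibroblasts was also lost with edgeR (adjusted p = 0.116) and DESeq2 (adjusted p = 0.1175). With all 64 libraries fitted the adjusted p was 0.413 against fibroblasts and 0.2625 against endothelial cells. Markers of proliferation thus did not share 1 direction.

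Growth factor receptors differed from the other populations in both directions. Of 25 tested 2 were higher than each, Erbb4 and Erbb3, and 1 was lower, Osmr, beside 7.55% and 2.76% of all genes. Pairwise, 9, 7 and 6 of the 25 were higher in cardiomyocytes than in fibroblasts, leukocytes and endothelial cells and 13, 10 and 16 were lower. Over all genes tested 34.3%, 33.4% and 35.2% were higher and 38.7%, 37.0% and 39.9% lower. Erbb4, the neuregulin receptor of heart muscle, was at 48.4, 69.6, 37.2 and 38.4 CPM in cardiomyocytes, against 0.544, 0.579, 0.535 and 1.36 CPM in fibroblasts, 15.7, 19.8, 15.9 and 18.2 CPM in leukocytes and 0.560, 0.288, 0.465 and 2.15 CPM in endothelial cells. Erbb3, its partner with little kinase activity, was at 12.7, 16, 10.8 and 10.3 CPM in cardiomyocytes, against 1.36, 1.05, 1.82 and 1.63 CPM in fibroblasts, 4.86, 4.44, 3.72 and 4.26 CPM in leukocytes and 0.261, 0.534, 0.775 and 1.03 CPM in endothelial cells. The differences of Erbb4 were 5.29 ± 0.30 from fibroblasts (adjusted p = 2.1e-11), 1.41 ± 0.30 from leukocytes (adjusted p = 0.000427) and 5.29 ± 0.30 from endothelial cells (adjusted p = 3.04e-11), and the smallest one of Erbb3 was 1.41 ± 0.20 from leukocytes (adjusted p = 5.9e-06). Nrg1, the neuregulin ligand, was picked after its values were seen. It was at 1.60, 3.72, 1.39 and 2.21 CPM in cardiomyocytes, against 0.578, 0.579, 0.606 and 1.23 CPM in fibroblasts, 2.84, 4.73, 2.77 and 2.13 CPM in leukocytes and 12.6, 19.4, 18.6 and 17.4 CPM in endothelial cells. Its difference from endothelial cells was -2.73 ± 0.25 (adjusted p = 2.2e-08). Osmr, a receptor chain for oncostatin M, was at 33.8, 30.3, 42.2 and 48.7 CPM in cardiomyocytes, against 75.3, 132, 147 and 116 CPM in fibroblasts, 197, 148, 200.0 and 183 CPM in leukocytes and 100.4, 154, 147 and 139.5 CPM in endothelial cells, and its differences were -1.57 from fibroblasts, -2.23 from leukocytes and -1.80 from endothelial cells.

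Of 39 genes listed as growth factor ligands 9 were higher than each, beside 7.55% of all genes: Btc, Fgf1, Fgf9, Fgf12, Fgf13, Fgf16, Vegfb, Bmp7 and Bmp10. Pairwise, 19, 14 and 19 of the 39 were higher in cardiomyocytes than in fibroblasts, leukocytes and endothelial cells. In the same order 14, 18 and 13 were lower, with medians of 0.43, -0.35 and 0.15. Fgf1, acidic fibroblast growth factor, was at 65.8, 71.6, 53.3 and 49.1 CPM in cardiomyocytes, against 7.34, 6.33, 6.38 and 5.72 CPM in fibroblasts, 14.5, 19.6, 14.3 and 14.4 CPM in leukocytes and 2.65, 3.53, 2.29 and 4.64 CPM in endothelial cells. Fgf9, a ligand that in mice acts on heart muscle growth, was at 13.1, 11.4, 10.1 and 7.68 CPM in cardiomyocytes, against 0.713 to 1.02 CPM in fibroblasts, 2.58 to 3.46 CPM in leukocytes and 0.0775 to 0.429 CPM in endothelial cells. Bmp7, a bone morphogenetic protein, was at 18.1, 23.5, 19.8 and 12.2 CPM in cardiomyocytes, against 0.306 to 0.545 CPM in fibroblasts, 4.55 to 6.28 CPM in leukocytes and 0.187 to 0.859 CPM in endothelial cells. The smallest differences were 1.90 ± 0.17 from leukocytes (adjusted p = 2.98e-08) for Fgf1, 1.64 ± 0.18 from leukocytes (adjusted p = 2.13e-07) for Fgf9 and 1.66 ± 0.22 from leukocytes (adjusted p = 2.77e-06) for Bmp7. Bmp10, a ligand of trabecular and atrial muscle, was at 3.68, 30.5, 3.81 and 7.46 CPM in cardiomyocytes, where library 2 alone exceeded 10 CPM. In fibroblasts it was at or under the 3-read level in all 4 libraries, and its smallest difference was 2.23 ± 0.49 from leukocytes (adjusted p = 0.000524). Fgf12, an intracellular factor that binds sodium channels, was at 4.64, 15, 5.54 and 13.3 CPM in cardiomyocytes, against 0.0357 to 0.362 CPM in fibroblasts, 0.224 to 2.76 CPM in leukocytes and 0.0373 to 0.215 CPM in endothelial cells. Of 21 receptors and enzymes of adrenergic, muscarinic, endothelin and angiotensin signalling 3 were higher than each, Adra1b, Chrm2 and Agtr1a, and Adra2a was lower. Chrm2, the cardiac muscarinic receptor, was at 85.4, 113, 61.9 and 60.7 CPM in cardiomyocytes, against 2.21 to 3.13 CPM in fibroblasts, 16 to 27.8 CPM in leukocytes and 11.2 to 22.1 CPM in endothelial cells. Agtr1a, the angiotensin II receptor, was at 14.2 to 24.6 CPM, with a smallest difference of 1.59 ± 0.16 from fibroblasts (adjusted p = 8.45e-08).

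**Figure D4:**
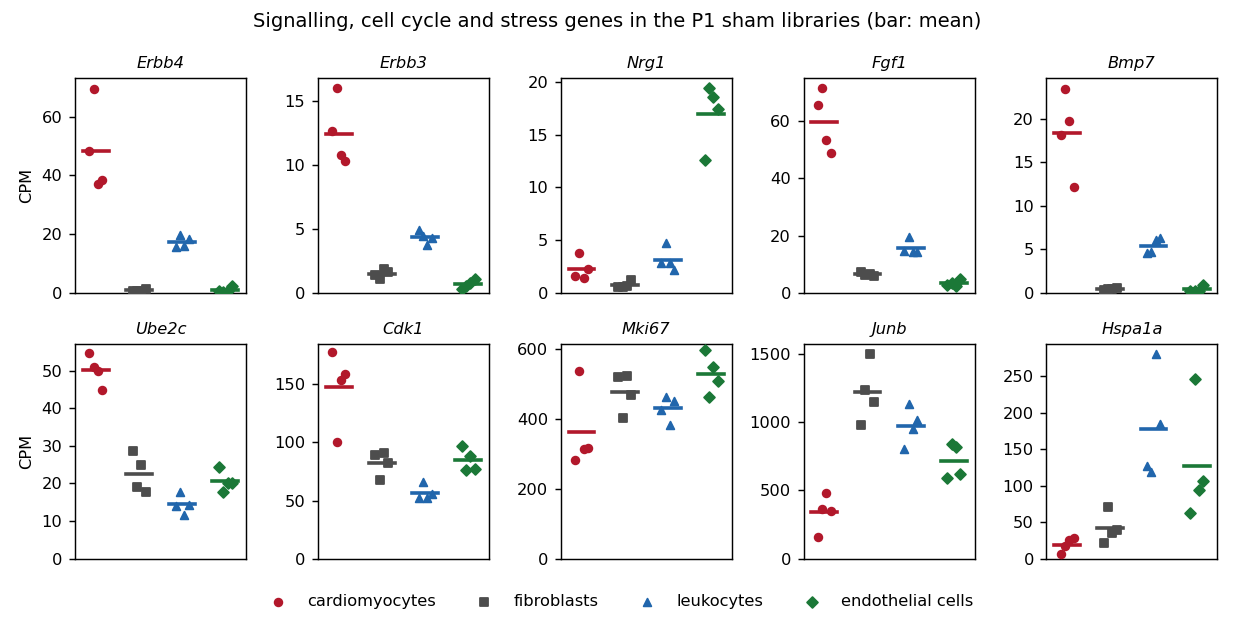
CPM of 10 signalling, cell cycle and stress genes in each P1 sham library, cardiomyocytes left and the other populations after them, with bars at the mean of 4. Erbb4, Erbb3, Fgf1 and Bmp7 are highest in cardiomyocytes, Nrg1 in endothelial cells; Cdk1 and Ube2c are highest in cardiomyocytes and Mki67 is not; Junb is lowest in cardiomyocytes in every library.

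Signalling and stress genes were among the 451 genes lower than each. Bcl3, a cofactor of NF-kappa-B, was at 3.68, 5.24, 9.05 and 7.03 CPM in cardiomyocytes, against 15.9 to 33.7 CPM in fibroblasts, 26.9 to 43.9 CPM in leukocytes and 24.5 to 37.2 CPM in endothelial cells, and Plxnc1, a semaphorin receptor, at 8.09, 18.5, 15.5 and 15 CPM, against 69.1 to 91.4 CPM in fibroblasts, 48.2 to 60.2 CPM in leukocytes and 47.9 to 69.3 CPM in endothelial cells. Their smallest differences were -1.97 ± 0.24 from fibroblasts (adjusted p = 8.64e-07) for Bcl3 and -1.93 ± 0.18 from leukocytes (adjusted p = 4.47e-08) for Plxnc1. Of the 451 genes 281 (62.3%) are protein coding, against 84.9% of all genes tested.

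Of 18 immediate early and heat shock genes 6 were lower than each (Junb, Jund, Zfp36, Hspa1a, Hspa1b and Hsph1), against 2.76% of all genes. Pairwise 16, 17 and 13 of the 18 were lower than in fibroblasts, leukocytes and endothelial cells, with medians of -1.18 against fibroblasts, -1.46 against leukocytes and -0.86 against endothelial cells. Over all genes tested 38.7%, 37.0% and 39.9% were lower. Junb, a subunit of the AP-1 factor, was at 161, 361, 484 and 349 CPM in cardiomyocytes, against 982, 1239.9, 1504 and 1151 CPM in fibroblasts, 801, 1131, 953 and 1018 CPM in leukocytes and 587, 843, 818 and 622 CPM in endothelial cells. Its differences were -1.94 ± 0.25 from fibroblasts (adjusted p = 1.3e-06), -1.62 ± 0.25 from leukocytes (adjusted p = 1.31e-05) and -1.17 ± 0.25 from endothelial cells (adjusted p = 0.000336). Hsph1, a heat shock co-chaperone, was at 17.8, 22.6, 23.5 and 28.9 CPM in cardiomyocytes, against 54.2, 173, 85.2 and 102 CPM in fibroblasts, 165, 98.9, 293 and 242 CPM in leukocytes and 34.5, 209.8, 77.5 and 93 CPM in endothelial cells, where single libraries of each sorted population ranged widely. Its smallest difference was -1.87 ± 0.43 from endothelial cells (adjusted p = 0.000738). Hspa1a, an inducible heat shock protein whose near-identical copy Hspa1b may take part of its reads, was at 5.77, 17.7, 25 and 28.7 CPM in cardiomyocytes, against 21.4, 70.1, 35.6 and 39 CPM in fibroblasts, 127, 118, 279.8 and 185 CPM in leukocytes and 62.3, 246, 93.5 and 106 CPM in endothelial cells. The ranges of cardiomyocytes and fibroblasts overlap, and the call against fibroblasts was lost without cardiomyocyte library 1 (-0.69, adjusted p = 0.147), without fibroblast library 2 (-0.88, adjusted p = 0.112) or without fibroblast library 4 (-1.16, adjusted p = 0.056). That call was also lost with edgeR (adjusted p = 0.0659) and DESeq2 (adjusted p = 0.0697). The 3 populations with higher levels are the sorted ones, and sorting and population cannot be told apart.

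Matrix genes were lower than in fibroblasts and most cytokine genes lower than in leukocytes, while the other comparisons of these lists were mixed. All 25 tested matrix genes were lower in cardiomyocytes than in fibroblasts, with a median of -3.42, beside 38.7% of all genes. Against leukocytes 1 was higher and 4 lower, and against endothelial cells 11 were higher and 6 lower. Fn1 was the only matrix gene lower than each. Fn1, fibronectin, was at 275, 453, 522 and 663 CPM in cardiomyocytes, against 4320.1, 3385, 3297 and 3543 CPM in fibroblasts, 1548, 899, 675 and 1115 CPM in leukocytes and 907, 1107, 1169.9 and 1103 CPM in endothelial cells. Of 14 basement membrane genes Hspg2, perlecan, was lower than each, at 435, 891, 696 and 615 CPM in cardiomyocytes, against 1733 to 2324 CPM in fibroblasts, 1349.5 to 1628 CPM in leukocytes and 3216 to 3912 CPM in endothelial cells. The smallest differences were -1.15 ± 0.24 from leukocytes (adjusted p = 0.000398) for Fn1 and -1.22 ± 0.18 from leukocytes (adjusted p = 8.08e-06) for Hspg2. Scara5 and Clec3b, a ferritin receptor and tetranectin, had among the lowest pairwise differences against fibroblasts: Scara5 was at 2.92, 2.54, 4.76 and 5.07 CPM in cardiomyocytes and 165 to 221 CPM in fibroblasts, a difference of -5.55 ± 0.23, and Clec3b differed by -5.37 ± 0.38. Of 22 cytokines and chemokines 21 were lower than in leukocytes, beside 37.0% of all genes. Against fibroblasts 12 were higher and 6 lower, with a median of 1.35. Against endothelial cells 11 were higher and 4 lower, with a median of 0.79. Il1a, an alarm cytokine, was at 0.921, 0.423, 2.21 and 1.09 CPM in cardiomyocytes and 122, 52.3, 59.7 and 95.6 CPM in leukocytes, a difference of -5.67 ± 0.28, and Cxcl2, which attracts neutrophils, differed by -5.52 ± 0.40. Against endothelial cells Shank3, a scaffold protein, was at 25.7, 70.3, 47.7 and 33.7 CPM in cardiomyocytes and 304 to 399.9 CPM in endothelial cells, a difference of -3.02 ± 0.21. Fibroblast and leukocyte markers in the cardiomyocyte fraction, given above, move with these levels, and their part was not tested.

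The same comparisons were made in other libraries of the series. In P1 MI hearts, that is, 3 days after the infarction surgery, 1267 of 16479 genes (7.69%) were higher and 287 (1.74%) lower in cardiomyocytes than in each other population. Of the 1233 P1 sham genes 1024 (83.0%) were also in the MI list, 80.8% of it, and of the 451 lower genes 134 (29.7%), 46.7% of the MI list. In P56 sham hearts 2973 of 16602 genes (17.9%) were higher and 2517 (15.2%) lower than each. These shared 1024 higher genes with P1 sham (83.0% of the P1 list, 34.4% of the P56 list; 1 gene went the other way) and 294 lower genes (65.2% and 11.7%; 2 went the other way). Cardiomyocyte markers in leukocytes, relative to cardiomyocytes of the same operation and age, were at 38.9% in P1 sham, at 14.9% of 74871 CPM in P1 MI and at 54.0% of 222880.0 CPM in P56 sham. The part of this muscle content in the counts was not tested.

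Whether the cardiomyocyte difference itself depended on the operation was tested as the difference from the mean of the other 3 populations in P1 sham minus the same in P1 MI. It differed for 2336 of 17083 genes (13.7%), 1055 (6.18%) higher and 1281 (7.50%) lower in sham, a split of 45.2% higher that was 64.7% with edgeR and 32.9% with library totals without ribosomal RNA. The count was 958 without P1 sham cardiomyocyte library 3, 1172 without P1 MI cardiomyocyte library 4 and 3846 without P1 sham cardiomyocyte library 2. None of the 16 cardiomyocyte markers was among the genes called. Of 30 DNA replication genes 11 were higher in sham and none lower, with a median of 0.30 beside 0.01 for all genes. Among the largest positive values was Mmrn1, a protein of platelets and endothelium, at 1.51 ± 0.30 (adjusted p = 0.00271). Mmrn1 averaged 18 ± 1.81 CPM in sham cardiomyocytes against 14.1 ± 5.53 CPM in sham leukocytes, and 13.2 ± 4.19 CPM in MI cardiomyocytes against 41.9 ± 9.90 CPM in MI leukocytes (SD, n = 4). Gpnmb, a glycoprotein of injury macrophages, was at 2.44, 0.845, 12.7 and 21.3 CPM in sham cardiomyocytes and 191, 174, 52.8 and 114 CPM in MI cardiomyocytes. In leukocytes it was at 464, 100.3, 142 and 263 CPM in sham and 984, 1493, 609 and 1268 CPM after MI. Its difference of -2.37 ± 0.71 (adjusted p = 0.0277) lost its call without P1 sham cardiomyocyte libraries 1 or 2 or P1 MI cardiomyocyte libraries 1, 2 or 4 (adjusted p 0.054 to 0.0697).

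With age the cardiomyocyte difference changed for most genes, 12257 of 17618 (69.6%) between P1 and P56 sham, 7012 (39.8%) higher at P1 and 5245 (29.8%) lower. The median of all genes was 0.17, and with library totals without ribosomal RNA it was 0.79 and the share of higher calls was 84.6% in place of 57.2%. The values of a library summed to 1.93e+06 to 2.63e+06 CPM in P56 sham cardiomyocytes and to 8.95e+05 to 1.27e+06 CPM in P1 sham cardiomyocytes. Levels in CPM set side by side between the ages rest on that scaling. Age cannot be told apart from the isolation: the adult mice were all male, and their hearts were perfused with enzyme in a buffer with butanedione monoxime, which stops contraction, while the newborn ventricles were minced and stirred. Tnni1 was at 1020.1, 1028, 1080.0 and 801 CPM in P1 cardiomyocytes and 0.124, 0, 0 and 0.421 CPM in P56 cardiomyocytes, where it was at or near the 3-read level. Its difference of differences was 5.12 ± 0.25 (adjusted p = 6.35e-16). Tnni3 averaged 1782 ± 217 CPM in P1 cardiomyocytes and 12079 ± 1969 CPM in P56 cardiomyocytes, while its difference from the other populations changed by -0.15 ± 0.31 (adjusted p = 0.665). That change was 1.63 (adjusted p = 1.39e-05) with quantile normalization and 0.70 (adjusted p = 0.0317) with library totals without ribosomal RNA, so its direction rests on the scaling. Acta1 averaged 45.5 ± 14.9 CPM in P1 cardiomyocytes and 5315 ± 3152 CPM in P56 cardiomyocytes, with a difference of differences of -2.52 ± 0.40 (adjusted p = 2.35e-06).

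By the main test the cardiomyocyte differences of cell cycle and mitochondrial lists changed in opposite directions between the ages. Of 30 G2 and M genes 28 were relatively higher in cardiomyocytes at P1 and 1 lower, with a median of 2.10. Of 39 respiratory chain genes none was higher and 37 were lower, with a median of -1.45. Of 22 citric acid cycle genes 18 were lower, with a median of -0.87. These 2 mitochondrial lists were still higher in cardiomyocytes at P56, where 38 of 39 and 22 of 22 genes were higher than each. The changes of the lists were not examined under other scalings. With library totals without ribosomal RNA the median of all genes was 0.79 in place of 0.17. Directions of these list changes may therefore rest on the scaling. Ube2c was at 54.8, 51.1, 50.0 and 44.8 CPM in P1 cardiomyocytes and 0.248, 1.23, 0.477 and 0.350 CPM in P56 cardiomyocytes, and its difference of differences was 2.13 ± 0.39 (adjusted p = 1.69e-05). Cdk1 averaged 148 ± 33.2 CPM at P1 and 0.933 ± 0.263 CPM at P56 in cardiomyocytes, with 2.34 ± 0.35 (adjusted p = 7.81e-07). For Ube2c and Cdk1 the fall within cardiomyocytes on the log2 scale exceeded the difference of differences. The mean of the other populations was thus also lower at P56, and the fall was not particular to cardiomyocytes. Erbb4 averaged 48.4 ± 15 CPM in P1 cardiomyocytes and 25 ± 3.38 CPM in P56 cardiomyocytes, against 17.4 ± 1.92 CPM in P1 leukocytes and 39.8 ± 21.1 CPM in P56 leukocytes; its difference of differences was 2.20 ± 0.39 (adjusted p = 1.07e-05). Among the lowest values were Trim72, a muscle membrane repair protein, at -3.45 ± 0.37 (adjusted p = 2.32e-09), and Bag3, a co-chaperone of the Z disc, at -3.35 ± 0.24 (adjusted p = 1.13e-12). Trim72 averaged 39.6 ± 9.21 CPM in P1 cardiomyocytes and 1319 ± 87.8 CPM in P56 cardiomyocytes. C3, complement component 3, was among the highest values, 5.28 ± 0.39 (adjusted p = 1.66e-12), with 403 ± 119 CPM in P1 cardiomyocytes against 205 ± 41.4 CPM in P1 fibroblasts, and 60.3 ± 33.3 CPM in P56 cardiomyocytes against 3325 ± 861 CPM in P56 fibroblasts. Both populations thus moved between the ages.

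**Figure D5:**
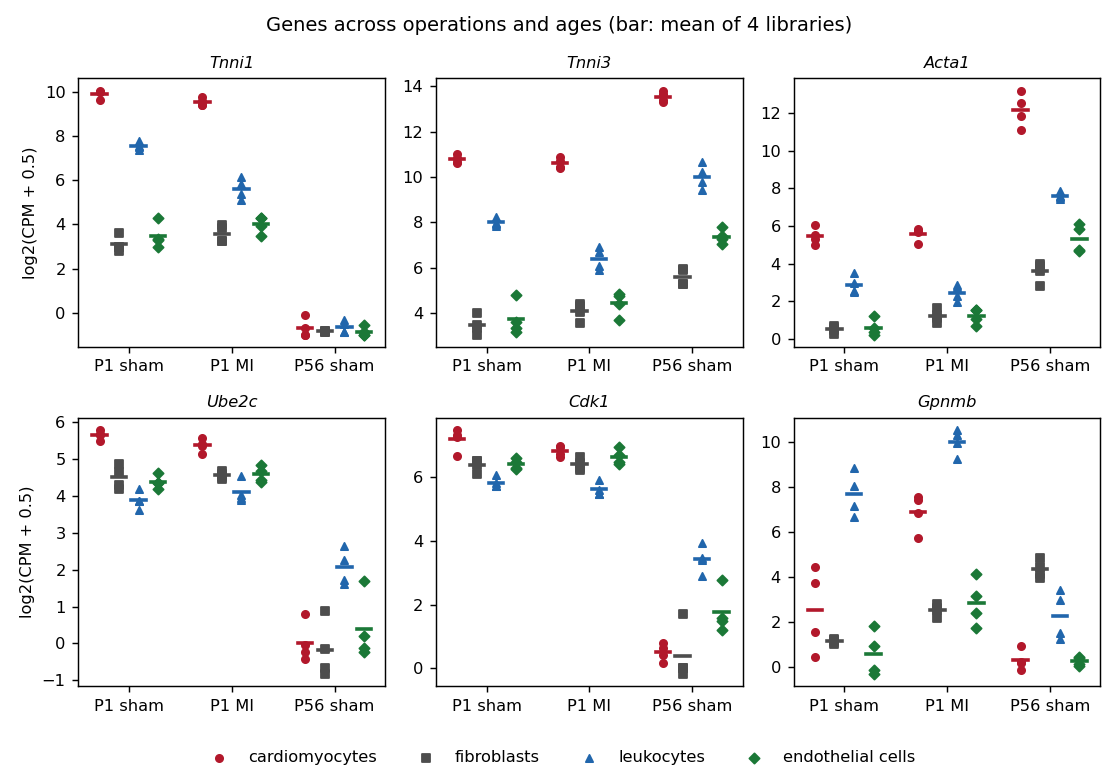
Level of 6 genes on the log2(CPM + 0.5) scale in P1 sham, P1 MI and P56 sham libraries, with cardiomyocytes first in each set, 1 point per library and bars at the mean of 4 on that scale. Tnni1, Ube2c and Cdk1 are under 2 CPM in P56 cardiomyocytes, Acta1 lies above its P1 level in P56 cardiomyocytes, and Gpnmb is highest in the P1 leukocytes.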

How the data were processed

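Gene expression was measured by RNA-seq (50-base single-end reads of stranded total RNA libraries, per the labels' protocols) in 64 libraries, of which the 16 P1 sham libraries, and for the last comparisons the 16 P1 MI and 16 P56 sham libraries, were used; the ATAC-seq files of the series and the P56 MI libraries were not analysed here. The programs Trimmomatic, STAR, HTSeq and edgeR are listed in the submitters' processing notes, together with mm10, GRCm38 and GRCh38 as builds. The authors deposited a signal per gene and library in CPM, made with edgeR from effective library sizes as deposited, so that the values of a library do not sum to 1e+06, and a gene length in bases, an annotation value of the authors. Dividing each value by what 1 read is worth gave whole reads for 100% of values (within 0.01), and edgeR 4.0.16 and DESeq2 1.42.0 were run on those reads as alternatives.
The main test was limma 3.58.1 (R 4.3.3) with a variance trend on log2(CPM + 0.5), over genes with at least 1 CPM in at least 4 of the libraries fitted, with Benjamini-Hochberg adjustment over all genes tested; every adjusted p in the text is from it unless another tool is named. Library totals were 9.80 to 27.5 M reads with a median of 21.1 M. Samples were grouped by their titles. No 2 replicates agreed within sampling noise. The analysis was checked on simulated data. Named genes were the 10 with the largest lowest difference in each direction, 4 per pairwise comparison and direction, up to 5 per list, 4 per direction for each difference between operations and ages, and all troponins, myosin chains and cytochrome oxidase isoforms; others are said to have been picked after their values were seen. A gene that this rule also chose is not reported here. The members and the 52 gene lists were chosen with earlier results of these data known. Alternatives were other scalings, pseudocounts, filters, variance models, samples fitted, a replicate block, tools, log2 thresholds, and leaving out libraries.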

Additional observations from a re-analysis of the deposited data

Results flagged for a closer look

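Single libraries stood apart from the other 3 of their population in 54 of 460 groups of 4 (115 genes), by Dixon's test at the 95% level. The 460 include groups with no value of 1 CPM, which could not be flagged. The genes were chosen with results known and share libraries. The 1 in 20 that chance gives in a single group is therefore no yardstick for this count. Endothelial library 4 was high in 23 genes, most of them muscle genes, with 9.49 CPM for Thy1, 1333 CPM for Ttn, 3.95 CPM for Myl7, 2.58 CPM for Cox7a1, 27.2 CPM for Tnni3, 92.6 CPM for Tnnt2, 369.9 CPM for Myh6, 75.2 CPM for Myh7, 13.4 CPM for Myh7b, 127 CPM for Myl2, 43.8 CPM for Myl3, 125 CPM for Actc1, 16.5 CPM for Casq2, 111 CPM for Ryr2, 3.39 CPM for Kcnj5, 1.42 CPM for Tbx5, 1.25 CPM for Ppara, 5.97 CPM for Rbm24, 13.7 CPM for Rbm20, 3.87 CPM for Cox6a2, 2.15 CPM for Erbb4, 9.41 CPM for Scara5 and 3.22 CPM for Lilr4b. It was low with 27.9 CPM for Cox8a. In this library the summed markers were also above those of the other 3 endothelial libraries, at 2746 CPM against 884 to 919 CPM for cardiomyocyte markers, 4713 against 1491 to 2117 CPM for fibroblast markers, 38.4 against 7.19 to 9.72 CPM for leukocyte markers, 127 against 31.9 to 47.3 CPM for macrophage markers and 25.7 against 3.21 to 8.72 CPM for neutrophil markers; their part in these values was not tested.

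Cardiomyocyte library 1 was high in 8 genes, with 322 CPM for Ckmt2, 484 CPM for Smpx, 534 CPM for Myoz2, 2113 CPM for Tnnc1, 766 CPM for Csrp3, 1469.9 CPM for Casq2, 4272 CPM for Pln and 4512 CPM for Mb. Cardiomyocyte library 2 was high with 25858 CPM for Ttn, 133 CPM for Myh7b, 538 CPM for Mki67 and 30.5 CPM for Bmp10; it also held 16.6% of 18S ribosomal RNA. Cardiomyocyte library 3 was low with 122 CPM for Xist, the RNA that coats the inactive X chromosome, and library 4 with 68.3 CPM for Slc2a4. Fibroblast library 4 was high with 15.3 CPM for Myl4, 11.8 CPM for Tnni1, 11.7 CPM for Eno3, 1.36 CPM for Erbb4 and 1.23 CPM for Nrg1, and fibroblast library 1 was low with 3.26 CPM for Trim72. Leukocyte library 2 was high in 7 genes, several of them atrial, with 4.27 CPM for Sln, 76.4 CPM for Myl7, 44.6 CPM for Myl4, 3.39 CPM for Mybphl, 19.6 CPM for Fgf1, 2.76 CPM for Fgf12 and 3.60 CPM for Bmp10, and low with 34 CPM for P2ry2. Leukocyte library 1 was low with 6.34 CPM for Nkx2-5, and leukocyte library 4 high with 43.9 CPM for Bcl3.

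The difference of cardiomyocytes from the mean of the other populations differed between P1 sham and P1 MI for 2336 genes and between P1 and P56 sham for 12257, by limma's test of the difference itself. The 4 highest values of P1 sham minus P1 MI among genes of at least 5 CPM were 1.51 ± 0.30 (adjusted p = 0.00271) for Mmrn1, 1.51 ± 0.28 (adjusted p = 0.00187) for Reln, 1.50 ± 0.48 (adjusted p = 0.0368) for Stfa1 and 1.39 ± 0.36 (adjusted p = 0.0126) for Ltbp2. Among the lowest were -2.37 ± 0.71 (adjusted p = 0.0277) for Gpnmb, -1.53 ± 0.34 (adjusted p = 0.00533) for Meg3 and -1.50 ± 0.31 (adjusted p = 0.00321) for Cd68. With edgeR the adjusted p was 0.238 for Stfa1 and 0.122 for Gpnmb, and with DESeq2 0.186 and 0.104. Of P1 minus P56 the highest were 5.28 ± 0.39 (adjusted p = 1.66e-12) for C3, 5.12 ± 0.25 (adjusted p = 6.35e-16) for Tnni1, 4.96 ± 0.42 (adjusted p = 2.94e-11) for Sphkap and 4.86 ± 0.35 (adjusted p = 9.89e-13) for Efemp1. The lowest were -3.45 ± 0.37 (adjusted p = 2.32e-09) for Trim72, -3.43 ± 0.21 (adjusted p = 3.39e-14) for Gsto1, -3.38 ± 0.24 (adjusted p = 7.16e-13) for P2ry2 and -3.35 ± 0.24 (adjusted p = 1.13e-12) for Bag3.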

How the results depend on the processing

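Of 11516 gene results under alternatives, 11368 kept their call, with the same direction where called, 119 lost their call and 27 gained one. Of those kept, 6041 came from fits without 1 library, which could belong to a population outside the comparison. Another 2 changed sign with a call in at least 1 of the 2 fits, and sign changes between uncalled results were not counted. Both reversals were Tnni3 between P1 and P56, -0.15 in the text, which was 1.63 with quantile normalization and 0.70 with library totals without ribosomal RNA. The genes lower than each, 451 in the text, numbered 790 with a pseudocount of 0.1, 283 with one of 1, 757 with edgeR, 790 with DESeq2, 802 without leukocytes and 3 at a log2 difference of 2, and 344 without cardiomyocyte library 1 to 585 without cardiomyocyte library 2. Those higher than each, 1233 in the text, numbered 1853 without leukocytes and 290 at a log2 difference of 2, and 1074 to 1245 when 1 library was left out. With a log2 difference of 1 also asked, 5482, 4794 and 5743 genes differed from fibroblasts, leukocytes and endothelial cells; without 1 library the counts were 11123 to 12236, 10647 to 11882 and 11569 to 12492. P1 sham minus P1 MI gave 4693 genes with array weights, 841 with all 64 libraries fitted, 4526 without the libraries over 5% of 18S, 210 with a log2 difference of 1, and 958 to 3846 without 1 library. P1 minus P56 gave 6472 with a log2 difference of 1 and 11717 to 12484 without 1 library. Quantile normalization put the median of all genes at -0.15, 0.08 and -0.16 against fibroblasts, leukocytes and endothelial cells. The median of P1 minus P56 was 0.33 with edgeR. The causes of these shifts were not tested. Deviations of same-numbered libraries correlated by 0.0699 to 0.320 between cardiomyocytes and endothelial cells (each cardiomyocyte library best with its own number), -0.0234 to 0.203 with fibroblasts and -0.138 to 0.0507 with leukocytes; as the labels state no pairing and not every pair exceeded 0.1, the libraries were not treated as pairs. A replicate block gave 12057, 11658 and 12361 pairwise genes, 1234 higher and 451 lower than each, 2687 and 12632 for the other comparisons, and 1 changed gene call (Cd68 against fibroblasts, -0.50, adjusted p = 0.033). DESeq2 left the adjusted p of 10 genes as NA. Depth limits genes at or under 0.102 to 0.409 CPM.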

Other observations

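The unsorted cardiomyocyte fraction also held genes of the epicardium. Of 7 epicardial genes tested 2 were higher than each, beside 7.55% of all genes. Pairwise, 5, 6 and 6 were higher than in fibroblasts, leukocytes and endothelial cells, and 1 was lower each time. The 7 genes summed to 174 ± 46.6 CPM in cardiomyocytes and 153 ± 14.2 CPM in fibroblasts. In leukocytes and endothelial cells they summed to 126 ± 25.8 CPM and 119 ± 8.13 CPM, and the cardiomyocyte range overlapped all of these. Upk3b, a uroplakin of mesothelial cells, was at 46.4, 31.4, 47.3 and 71.1 CPM in cardiomyocytes, against 18.7 to 27.4 CPM in fibroblasts, 6.62 to 24.2 CPM in leukocytes and 0.155 to 1.67 CPM in endothelial cells. Its difference from fibroblasts of 1.01 ± 0.35 (adjusted p = 0.0153) lost its call without cardiomyocyte library 4 (0.82, adjusted p = 0.0585). Bnc1, a transcription factor of mesothelium, was at 10.7, 7.86, 10.5 and 14.4 CPM in cardiomyocytes, against 4.05 to 5.58 CPM in fibroblasts, 1.35 to 4.48 CPM in leukocytes and 0.0387 to 0.301 CPM in endothelial cells. Of 14 imprinted growth genes none was higher or lower than each, and the medians were -2.17 against fibroblasts, -0.20 against leukocytes and -0.77 against endothelial cells. Of 21 Hippo pathway genes none was higher or lower than each either.

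Among 438 protein-coding genes that were higher in cardiomyocytes than in fibroblasts by a log2 difference of at least 3 and than in endothelial cells by at least 2, the median difference from leukocytes was 2.35 for 83 genes of up to 1000 bases and 1.24 for 18 genes of over 8000 bases, where Ttn lies, with 1.94, 1.69 and 1.54 in the classes between. Over all 438 genes Spearman's rho between length and this difference was -0.24, and Pearson's r with the log2 of length was -0.02. The 438 genes were not chosen as muscle genes. They include leukocyte genes that were lower in cardiomyocytes than in leukocytes, among them Ptprc, Csf1r and Lyz2. The class medians and both correlations mix these with muscle genes, so they do not describe muscle genes alone. The class of longest genes is thinly filled, and all genes share the same libraries. The cause was not tested.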
